A study of Rattus norvegicus with 6 samples.

Results

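The results concern 10 genes that govern how fat is stored in lipid droplets and released from them, measured in the liver of rats made hypercholesterolemic by diet. The genes are the perilipins Plin2, Plin3, Plin4 and Plin5, the CIDE proteins Cidea, Cideb and Cidec, the triglyceride lipase Pnpla2, its coactivator Abhd5 and its inhibitor G0s2. The rule names them by symbol and uses no measured value, and every array probe set annotated with exactly 1 of these symbols was taken. This gave 12 probe sets, 2 each for Plin2 and Abhd5 and 1 for each other gene, out of 31042 probe sets and 14217 named genes on the array. Each of the 12 passed the filter on dim signals and was tested.

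In the probiotic group, rats ate a fat-rich diet for 30 d and, while it went on for another 30 d, were gavaged daily with Lactobacillus casei Zhang, a lactic acid bacterium, in 1 ml of saline. In the high-fat group, which served as the control, rats had the same diet over both periods and 1 ml of saline alone. Each group was represented by 3 liver samples on 1-colour arrays. Both groups were thus fat-fed, no rats on a normal diet were analysed here, and the labels used here state no strain, sex or age. The samples were drawn at random from the groups, without a statement that each came from its own animal, so the p-values measure the spread between these samples, which may be technical.

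Hepatocytes keep triglyceride in droplets bounded by a phospholipid monolayer and coated with perilipins, which limit the access of lipases. CIDE proteins sit at droplet contacts and on the endoplasmic reticulum, where they pass lipid between droplets or onto nascent lipoproteins. Pnpla2, known as adipose triglyceride lipase, starts triglyceride breakdown, with Abhd5 switching it on and G0s2 holding it back. Several of these genes, Plin2 and Plin5 among them, are known in mice and in cultured cells as targets of the fatty acid receptor PPARalpha.

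The sequences just upstream of Plin5, Cideb and Plin2 are shown because Plin5 and Cideb were the 2 members whose groups did not overlap and Plin2 had the second largest positive difference. Each line holds the 250 bases before an annotated transcription start, from RefSeq on assembly GRCr8, 5′ to 3′ on the strand of the gene. Capitals mark matches on either strand to AGGTCA (the half-site of nuclear receptors such as PPARalpha), to DR1 (2 such half-sites in a row with 1 base between them, the paired site), CACGTG (the E-box), CCAAT or TATAA. Plin5 lies at chr9:1033285-1033534 (minus strand), Cideb at chr15:33226408-33226657 (minus strand), and the 2 starts of Plin2 at chr5:106229019-106229268 and chr5:106228538-106228787 (minus strand).
Plin5: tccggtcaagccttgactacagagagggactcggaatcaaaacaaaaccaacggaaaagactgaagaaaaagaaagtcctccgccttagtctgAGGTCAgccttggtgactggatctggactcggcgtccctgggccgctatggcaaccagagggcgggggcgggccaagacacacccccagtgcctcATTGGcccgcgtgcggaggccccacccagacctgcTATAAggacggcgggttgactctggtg
Cideb: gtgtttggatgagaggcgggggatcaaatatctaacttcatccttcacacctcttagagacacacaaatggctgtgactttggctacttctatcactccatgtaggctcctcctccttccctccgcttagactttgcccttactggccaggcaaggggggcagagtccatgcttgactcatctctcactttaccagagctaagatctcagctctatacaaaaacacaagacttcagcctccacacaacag
Plin2, upstream start: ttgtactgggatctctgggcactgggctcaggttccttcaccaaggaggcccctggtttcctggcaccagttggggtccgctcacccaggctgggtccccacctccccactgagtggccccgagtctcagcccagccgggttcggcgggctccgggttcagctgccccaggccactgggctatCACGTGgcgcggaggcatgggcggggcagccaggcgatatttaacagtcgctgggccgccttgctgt
Plin2, downstream start: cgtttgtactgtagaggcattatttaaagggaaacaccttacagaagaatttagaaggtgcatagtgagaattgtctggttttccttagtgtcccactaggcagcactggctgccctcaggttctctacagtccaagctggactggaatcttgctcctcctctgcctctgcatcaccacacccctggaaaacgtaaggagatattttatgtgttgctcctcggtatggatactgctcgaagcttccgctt

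In the Plin5 window the half-site begins at position -157, the CCAAT match at -62 and TATAA at -27, counted back from -1, the base before the start. The upstream Plin2 start has CACGTG at -67, and the windows of Cideb and of the other Plin2 start hold none of the 5 motifs. Among all 10 member genes, 2 (Abhd5 and Plin5) hold AGGTCA, 1 (Plin2) holds CACGTG, 2 (Plin3 and Plin5) hold CCAAT, 2 (G0s2 and Plin5) hold TATAA, and 0 hold the paired site. Of 33469 rat promoter windows of this length, 14.1% held AGGTCA, 5.59% CACGTG, 34.0% CCAAT, 24.0% TATAA and 0.0508% the paired site. These percentages are per window, while a member gene was counted if any of its windows held the motif, so the units differ. The matches describe letters in these windows and do not show binding.

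The deposited values are intensities on a linear scale, with a mean of 500.3 on every array once the top and bottom 2% are removed. Median intensity was 90.4 to 147.2, and the number of arrays limits the precision. Log2(intensity + 16) values were quantile normalized for the test, and log2 signals and differences below are on that scale. The correlations of high-fat sample 2 with the other 5 arrays, 0.897 to 0.919, were all below the 10 among the remaining arrays, 0.921 to 0.946. The log2 signal gap between the Actb control probe sets for the 3′ and the 5′ end of the transcript, which widens as RNA degrades, was 2.08, 3.07 and 2.39 in probiotic samples 1, 2 and 3, against 1.95, 1.48 and 1.97 in high-fat samples 1, 2 and 3. The Actb gap did not overlap between the groups, so a fit with it as a covariate cannot fully tell treatment apart from RNA quality. The same gap for Gapdh was 0.667, 1.58 and 1.27 in probiotic samples 1, 2 and 3, against 0.533, 0.496 and 0.754 in high-fat samples 1, 2 and 3, and it overlapped, with probiotic sample 1 below high-fat sample 3. For the members and the named pathway genes and regulators, the difference from a fit with the Actb gap as a covariate is given wherever it turned the sign or moved the value by over 1.5 times.

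None of the 12 probe sets passed the test between the probiotic and high-fat groups. With limma, 0 of 12 had an adjusted p under 0.05 (0.726 to 0.972), against 4 of all 18625 probe sets tested (0.0215%). At an unadjusted p under 0.05 there were 2, Plin5 and Plin2, both higher in the probiotic group, where 2.99% of all probe sets were higher at that level. Plin5 and Cideb had every probiotic sample above every high-fat sample, as did 6.02% of all probe sets, and 0 members lay wholly below, against 6.7%. Of the 10 genes by their brightest probe set, 6 had a positive and 4 a negative difference, with a median of 0.11 log2 units, beside 0.0042 over all probe sets tested. That median was -0.012 adjusted for the Actb gap, -0.015 without high-fat sample 2 and -0.016 with the mean of both probe sets for Plin2 and Abhd5.

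**Figure D1:**
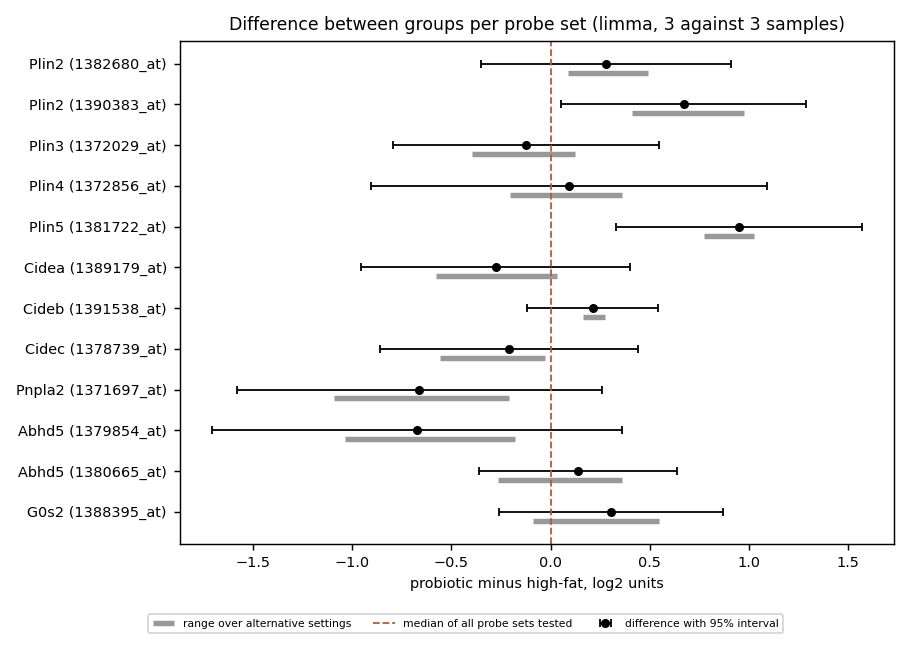
Differences between the groups for the 12 probe sets, as probiotic minus high-fat in log2 units on the horizontal axis, 1 probe set per row. Points and thin bars are the limma estimate and its 95% interval (3 samples each), grey bars the range over the alternative settings, and the dashed line the median of all probe sets tested; the intervals of Plin5 and of the brighter Plin2 probe set lie above 0, and the other 10 span it.

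Plin5, the perilipin of oxidative tissues that ties droplets to mitochondria, had the largest difference of the 12. Its deposited intensity was 335.2, 245.5 and 265.8 in probiotic samples 1, 2 and 3, against 148.6, 147.4 and 145.6 in high-fat samples 1, 2 and 3. The 3 high-fat samples were nearly equal on this scale, and the lowest probiotic sample stood well above them. On the log2 scale Plin5 was 8.23 ± 0.170 in probiotic livers and 7.28 ± 0.242 in high-fat livers (SD, n = 3 each). The difference was 0.95 (SE 0.275), or 1.93-fold, with a 95% interval from 1.26-fold to 2.97-fold. It ranked 148 of 18625 by p and did not pass after adjustment (unadjusted p = 0.00683, adjusted p = 0.726 with limma). The difference held its sign in 17 of 17 other settings, from 0.77 (pseudocount 64) to 1.03 (pseudocount 1). The adjusted p in those settings was 0.435 to 0.9995. Adjusted for the Actb gap the difference was 0.98 (unadjusted p = 0.0426, adjusted p = 0.9995 with limma).

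**Figure D2:**
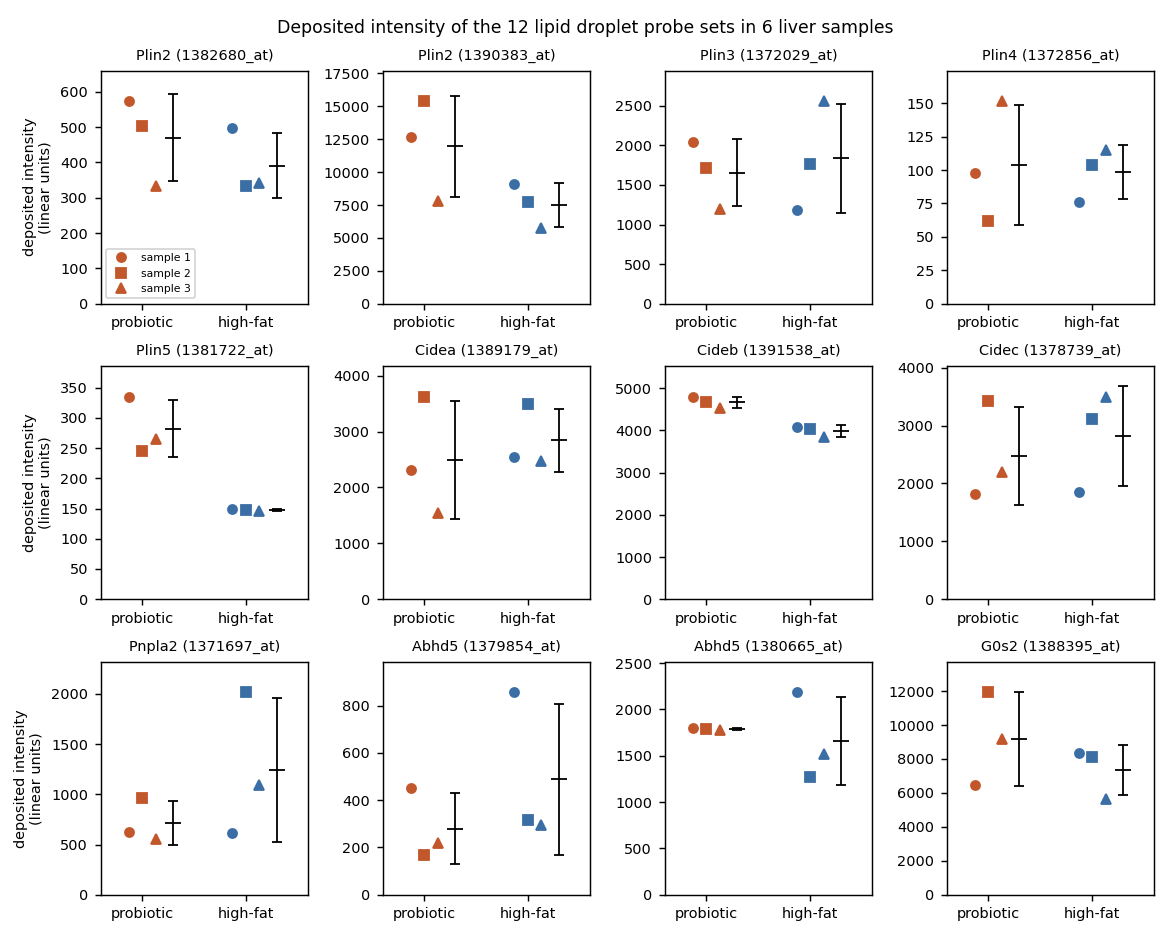
Deposited intensity (vertical axis, linear units from 0) of each of the 12 probe sets in the probiotic group and the high-fat group. Symbols mark samples 1 to 3 of a group and black bars the mean ± SD (n = 3); the Plin5 and Cideb groups do not overlap, and those of the other 10 probe sets do.

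Plin2, the main coat protein of droplets in hepatocytes, was measured by 2 probe sets that both had positive differences. The brighter gave 12689.5, 15402.6 and 7836.6 in probiotic samples 1, 2 and 3, against 9085.3, 7692.7 and 5777.8 in high-fat samples 1, 2 and 3. Probiotic samples 1 and 2 exceeded every high-fat sample, while probiotic sample 3 fell inside the high-fat range. Its log2 signal averaged 13.5 ± 0.546 in probiotic livers and 12.9 ± 0.342 in high-fat livers (SD, n = 3 each), a difference of 0.67 (SE 0.275), or 1.59-fold (95% interval 1.04-fold to 2.44-fold; unadjusted p = 0.0364, adjusted p = 0.726 with limma). The dimmer gave 573.5, 501.6 and 333.6 in the probiotic group, against 496.5, 332.1 and 341.9 in the high-fat group, a log2 difference of 0.28 (95% interval -0.35 to 0.91; adjusted p = 0.822). On both, probiotic samples 1 and 2 were the highest arrays and high-fat sample 1 the next. The difference on the brighter probe set was 0.43 without probiotic sample 2, 0.41 adjusted for the Actb gap and 0.97 without probiotic sample 3. On the dimmer probe set it was 0.16 adjusted for the Actb gap.

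Plin4 and Plin3, the other perilipins, showed overlapping groups. On rat chromosome 9, Plin4 and Plin5 are neighbours with 0 annotated genes between them, and Plin3 lies further along with 13 between it and Plin5. Plin4, a perilipin chiefly of adipocytes and muscle, was dim, at 98.2, 62.1 and 151.7 in the probiotic group, against 76.2, 103.6 and 115.4 in the high-fat group. Its highest and lowest arrays were both probiotic samples, and the log2 difference was 0.09 (95% interval -0.91 to 1.09; adjusted p = 0.972). It was -0.20 without probiotic sample 3 and 0.34 adjusted for the Actb gap. Plin3, a widely expressed perilipin that moves between the cytosol and new droplets, had 2040.0, 1717.6 and 1202.4 in the probiotic group, against 1187.3, 1765.3 and 2560.8 in the high-fat group. On this scale the probiotic samples lay within the high-fat range, while after normalization probiotic sample 3 was the lowest array by a narrow margin. The log2 difference was -0.12 (95% interval -0.79 to 0.55; adjusted p = 0.944). It was 0.12 without high-fat sample 3 and -0.03 adjusted for the Actb gap.

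Among the CIDE genes, Cideb differed in the opposite sense to the other two, by a small amount. Cideb, which loads lipid onto very low density lipoprotein in hepatocytes, had 4800.1, 4663.2 and 4531.8 in probiotic samples 1, 2 and 3, against 4088.4, 4028.4 and 3835.2 in high-fat samples 1, 2 and 3. All 3 probiotic samples were higher than all 3 high-fat samples, and the spread within groups was narrow. The log2 signal was 12.18 ± 0.0367 in probiotic livers and 11.97 ± 0.0869 in high-fat livers (SD, n = 3 each). The difference was 0.21 (SE 0.147), or 1.16-fold (95% interval 0.921-fold to 1.46-fold), with an adjusted p of 0.760 in limma, which pools the spread with that of other probe sets of like signal. Over 17 other settings it ranged from 0.16 to 0.27.

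Cidec and Cidea, which drive fusion and growth of droplets and which rise in mouse liver as it accumulates fat, had negative differences that did not pass the test. Cidec had 1810.0, 3418.2 and 2192.9 in the probiotic group, against 1848.7, 3112.5 and 3501.1 in the high-fat group. Both groups reached from about the same low to about the same high value, and the log2 difference was -0.21 (95% interval -0.86 to 0.44; adjusted p = 0.882). Cidea had 2321.7, 3627.6 and 1542.5 in the probiotic group, against 2554.7, 3493.7 and 2476.5 in the high-fat group. The 2 highest arrays were sample 2 of each group, and the log2 difference was -0.28 (95% interval -0.96 to 0.40; adjusted p = 0.839). Cidea was 0.03 without probiotic sample 3 and -0.52 adjusted for the Actb gap, and Cidec ranged from -0.56 adjusted for the Actb gap to -0.03 without probiotic sample 1.

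Of the lipolysis genes, the lipase Pnpla2 had a negative difference and its inhibitor G0s2 a positive one, neither past the test. Pnpla2 had 626.4, 965.9 and 552.3 in probiotic samples 1, 2 and 3, against 613.5, 2017.1 and 1092.1 in high-fat samples 1, 2 and 3. High-fat samples 2 and 3 were the 2 highest arrays, and high-fat sample 1 lay among the probiotic samples. On the log2 scale Pnpla2 was 9.48 ± 0.411 in probiotic livers and 10.1 ± 0.877 in high-fat livers (SD, n = 3 each), a difference of -0.66 (SE 0.409), or 1.58-fold lower (95% interval of the log2 difference -1.58 to 0.26; adjusted p = 0.742). Without high-fat sample 2, the array that correlated least with the others, the difference was -0.21, and without high-fat sample 1 it was -1.09.

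G0s2, which binds Pnpla2 and blocks its activity, had 6438.0, 11941.2 and 9150.8 in the probiotic group, against 8350.6, 8087.7 and 5665.5 in the high-fat group. Probiotic samples 2 and 3 were the highest arrays, and probiotic sample 1 was below 2 of the high-fat samples. The log2 difference was 0.30 (SE 0.252; 95% interval -0.26 to 0.87; adjusted p = 0.792). It was -0.09 adjusted for the Actb gap and 0.08 without probiotic sample 2, the array with the widest gap. The signal of G0s2 relative to Pnpla2, as the log2 difference within an array centred on its mean over the 6 arrays, was 0.146, 0.466 and 0.838 in probiotic samples 1, 2 and 3, against 0.566, -1.21 and -0.804 in high-fat samples 1, 2 and 3. This comparison was chosen after its values were seen and is given without a test: high-fat samples 2 and 3 stood low, and high-fat sample 1 lay inside the probiotic range.

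Abhd5, the coactivator that frees Pnpla2 to act, gave contrary differences on its 2 probe sets. The brighter had 1799.9, 1790.6 and 1776.3 in the probiotic group, against 2186.8, 1271.1 and 1513.5 in the high-fat group. The probiotic samples were nearly equal and lay inside the wider high-fat range, with a log2 difference of 0.14 (95% interval -0.36 to 0.64; adjusted p = 0.898). The dimmer had 451.3, 168.7 and 217.8 in the probiotic group, against 857.5, 314.4 and 293.9 in the high-fat group, a log2 difference of -0.67 (95% interval -1.71 to 0.36; adjusted p = 0.760). High-fat sample 1 was the highest array on both probe sets, and without it the differences were 0.36 on the brighter and -0.18 on the dimmer. Adjusted for the Actb gap they were 0.0094 on the brighter and -0.29 on the dimmer. The mean of both probe sets gave -0.27, and the direction for Abhd5 is therefore unsettled.

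The members peaked in different samples, judged on the log2 signal. Plin2 on its brighter probe set and G0s2 were highest in probiotic sample 2 and lowest in high-fat sample 3. Cidec and Plin3 were highest in high-fat sample 3, Cidea and Pnpla2 in high-fat sample 2, and Plin5 and Cideb in probiotic sample 1. By array, 9 of the 10 genes lay above their own mean in probiotic sample 2 and 5 each in probiotic samples 1 and 3. In high-fat samples 1, 2 and 3 the counts were 3, 5 and 4. The same count over all probe sets was not made. Probiotic sample 2 had the widest Actb and Gapdh gaps. It was the highest array for 3807 of all 18625 probe sets tested, second to high-fat sample 2 at 4433.

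**Figure D3:**
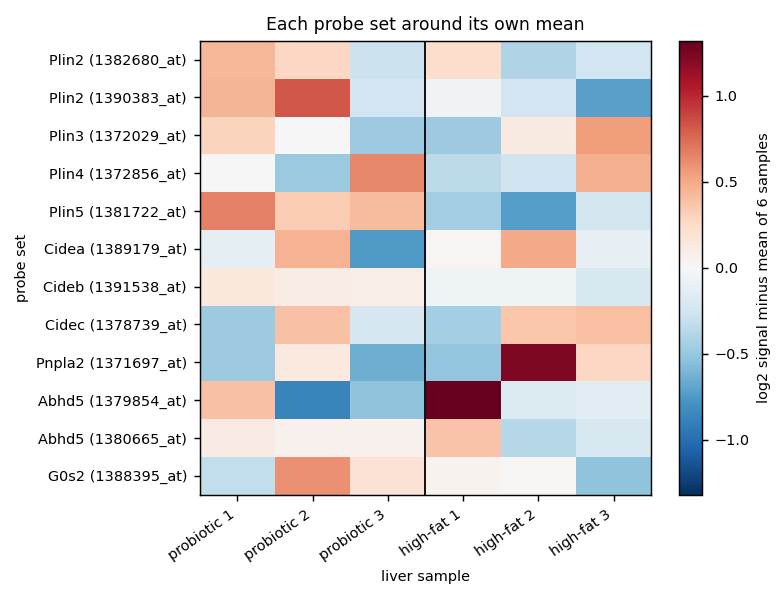
Log2 signal of each probe set (rows) in each liver sample (columns, probiotic left of the line, high-fat right) minus its mean over the 6 samples, red above and blue below. Plin5, Cideb and the brighter Abhd5 probe set are above their means in all 3 probiotic samples. The strongest single values are the dimmer Abhd5 probe set in high-fat sample 1 and Pnpla2 in high-fat sample 2.

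The genes whose profile over the 6 arrays lay closest to that of Plin2 on its brighter probe set were taken from 14273 tested probe sets of other genes by the root mean square difference between mean-centred log2 signals. They were Slc6a6, a taurine transporter (0.0797 log2 units), Bbs2, a component of the complex that sorts cargo to cilia (0.122), Fdx1, a mitochondrial electron carrier (0.161), and Macir (0.179). With 6 arrays and this many candidates, such closeness is a description of these samples.

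Other genes of droplet biology and lipolysis likewise had 0 calls. Of 28 such genes listed, 26 were named on the array and 24 tested. By the brightest probe set of each gene, differences were positive for 19 and negative for 5, with a median of 0.078 log2 units. Of all probe sets tested, 50.45% had a positive difference. Genes with a single tested probe set leaned the same way, with more positive than negative differences. For the rest, the lean depends on the choice of the brightest probe set. Among the other tested probe sets, Fitm2 gave -0.49, Ubxn4 -0.48 and -0.11, Pcyt1a -0.47, and Faf2 -0.42 and 0.16. Rab7a gave -0.37 and Lamp2 0.25, and those of Mgll, Dgat2 and Lipe follow. With limma 0 passed the adjusted test in either direction, and 2 of 24 had an unadjusted p under 0.05, beside 6.85% of all probe sets. Mgll, the lipase that completes triglyceride breakdown by cleaving monoglycerides, had 1274.6, 1830.3 and 1482.0 in the probiotic group, against 1114.3, 945.0 and 988.2 in the high-fat group. Every probiotic sample was above every high-fat sample, with a log2 difference of 0.56 (SE 0.200, adjusted p = 0.726), and 2 other Mgll probe sets gave 0.66 and 0.43. Adjusted for the Actb gap it was 0.27.

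Dgat2, which makes triglyceride, had 10697.6, 11200.8 and 12354.5 in the probiotic group, against 9007.7, 9524.9 and 9291.0 in the high-fat group. These groups did not overlap either, at a log2 difference of 0.33 (SE 0.133, adjusted p = 0.726), though another Dgat2 probe set gave -0.09. Rab18, a small GTPase found on droplets, was the reverse, with 2831.0, 2063.0 and 2485.4 in the probiotic group, against 3238.5, 3046.6 and 3043.9 in the high-fat group. Its log2 difference was -0.37 (SE 0.182, adjusted p = 0.732), and -0.09 adjusted for the Actb gap. The adipocyte perilipin Plin1 had a log2 difference of 0.36 (SE 0.441, adjusted p = 0.862), which was -0.17 adjusted for the Actb gap. Lipe, hormone-sensitive lipase, had 0.47 (SE 0.754, adjusted p = 0.897), where 1 high-fat sample read 32.8 and the other 2 read 492.8 and 638.3. Lipe had -0.59 without that sample and 1.58 adjusted for the Actb gap, and another probe set gave -0.76. Pnpla3, a droplet protein related to Pnpla2, was too dim to pass the signal filter and was left untested.

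**Figure D4:**
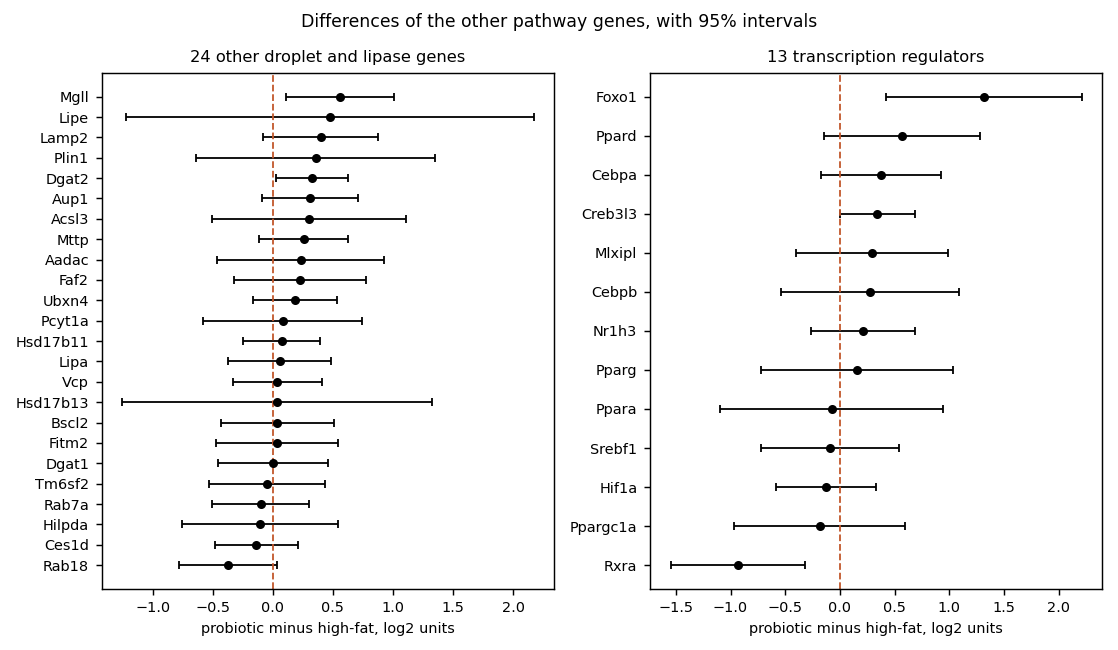
Probiotic minus high-fat differences in log2 units (horizontal axis) with 95% intervals for 24 other droplet and lipase genes on the left and 13 transcription regulators on the right, 1 gene per row by its brightest probe set, with the median of all probe sets tested as a dashed line. The intervals of Mgll, Dgat2 and Foxo1 lie above 0, that of Rxra lies below 0, and the others span it.

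Of 13 transcription factors and coactivators known to act on droplet genes, 8 had positive and 5 negative differences with a median of 0.21 log2 units. None passed the adjusted test (0 in each direction with limma), and 2 of 13 had an unadjusted p under 0.05, beside the same 6.85% of all probe sets. Rxra, the partner receptor with which PPARalpha binds DNA, had 392.1, 198.4 and 225.3 in the probiotic group, against 520.1, 560.2 and 486.9 in the high-fat group. All 3 probiotic samples were below all 3 high-fat samples, at a log2 difference of -0.94 (SE 0.273, adjusted p = 0.726), and at -0.47 adjusted for the Actb gap.

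Foxo1, which activates Pnpla2 in fasting adipocytes of mice, had 749.0, 2163.7 and 2524.3 in the probiotic group, against 641.8, 549.6 and 713.8 in the high-fat group. The groups did not overlap, but probiotic sample 1 was close to the high-fat samples, at a log2 difference of 1.32 (SE 0.398, adjusted p = 0.726). Without probiotic sample 1 it was 1.85 with an adjusted p of 0.0480, adjusted for the Actb gap it was 0.56, and another Foxo1 probe set gave 0.075. Creb3l3, a membrane-bound factor of the hepatic fasting response, had a log2 difference of 0.34 (SE 0.154, adjusted p = 0.728). Ppara itself had -0.08 (SE 0.453, adjusted p = 0.977) and Pparg, which drives fat storage, 0.16 (SE 0.392, adjusted p = 0.945). Without probiotic sample 3 the sign of both turned, to 0.14 for Ppara and -0.19 for Pparg. Adjusted for the Actb gap, Ppara was 0.31 and Pparg 0.64.

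Markers of other cell types were read in the same samples, since in bulk tissue fewer cells of a type and less RNA per cell cannot be told apart. Hepatocyte markers were bright, with deposited Alb between 61305.8 and 76711.8 in the probiotic group and between 55435.0 and 126788.1 in the high-fat group. After normalization Alb differed by -0.0050 log2 units. Of 7 hepatocyte markers tested, 4 had positive and 3 negative differences, with a median of 0.016 log2 units and 0 past the test. Only Hnf4a had groups that did not overlap, at 0.28, and 2 other Hnf4a probe sets gave -0.61 and -0.39. Of 7 adipocyte markers, 6 were named on the array, and the summed intensity was 1065.6 to 1312.0 in the probiotic group and 640.7 to 1473.4 in the high-fat group. Of the 4 tested, 3 had positive and 1 a negative difference, the fatty acid carrier Fabp4 at -1.36 log2 units (SE 0.584, adjusted p = 0.726). Adipoq and Lep, the defining hormones of adipocytes, lay below the signal filter, at 7.7 to 62.3 for Adipoq and 8.2 to 27.9 for Lep in the probiotic group and 33.2 to 155.0 and 7.9 to 11.9 in the high-fat group. Stellate cell markers had 2 positive and 6 negative differences, endothelial cell markers 3 and 2, and biliary cell markers 3 and 0. In these lists too, 0 passed the test. Of 8 Kupffer cell markers, 6 were tested and all 6 had negative differences, with a median of -0.37 log2 units and 0 past the test. The summed deposited intensity of the Kupffer cell list was 10174.6 to 12614.0 in the probiotic group and 11883.6 to 17172.1 in the high-fat group. The highest sum was that of high-fat sample 2, where all 6 had their highest deposited value. That array correlated least with the others and had the highest median deposited intensity, 147.2. After normalization only Csf1r of the 6 had groups that did not overlap, lower in the probiotic group, as did 6.7% of all probe sets. Its log2 difference was -0.49 (SE 0.221, adjusted p = 0.728 with limma). Macrophages also make Plin2 and Plin3, and the part of these cells in the values of either gene was not tested.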

How the data were processed

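Total RNA (8 ug) was extracted with Trizol, made into biotin-labelled cRNA and hybridised by the Affymetrix protocol, per the labels' protocols. The values the authors deposited are 1 linear intensity for each probe set on each array. The summarising software is not given in the sources used here, and no detection calls were used.

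Log2(intensity + 16) values were quantile normalized, which removes differences in overall signal distribution. The 57 control probe sets were left out, and the 18625 with a mean at or above the 40th percentile were fitted with limma 3.58.1 in R 4.3.3 (lmFit, then eBayes with trend). Two-sided p-values were adjusted by Benjamini-Hochberg over all of these, at a threshold of 0.05. Because of the added 16, folds of dim probe sets are understated. Symbols came from the platform annotation, and 20758 of 20826 probe sets with 1 symbol matched the RefSeq table of assembly GRCr8 by gene identifier, with 0 symbols changed. Genes outside the members are given by their brightest probe set, and all probe sets of the 10 members are given.

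The members, gene lists and tests were chosen with earlier results of these data known. All members were named, with the 3 genes of smallest p from each of 2 lists, a fixed set (Lipe, Mgll, Plin1, Pnpla3, Dgat2, Ppara and Pparg) and the 4 genes closest to Plin2 in profile. The promoter motifs were chosen after the sequences were seen. Alternatives covered scaling, filter, pseudocount, variance model, array weights, a block on the replicate number, the Actb gap as a covariate and samples left out. Figures were drawn with matplotlib 3.10.9.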

Additional observations from a re-analysis of the deposited data

How the results depend on the processing

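Under each of 17 other fits, 0 of the 12 member probe sets passed the adjusted test. The number passing among all probe sets was 4 and ranged from 3 to 12 with 1 sample left out (12 without probiotic sample 1, 9 without high-fat sample 1). The differences of Plin5, Cideb, Cidec, Pnpla2, both Plin2 probe sets and the dimmer Abhd5 probe set, and of Mgll, Dgat2, Rab18, Rxra, Foxo1 and Creb3l3, kept their sign in all settings run. Other signs turned. With 1 sample left out, Plin3 ranged from -0.40 to 0.12, Plin4 from -0.20 to 0.36, Cidea from -0.58 to 0.030, the brighter Abhd5 probe set from -0.014 to 0.36, Lipe from -0.59 to 1.13, Ppara from -0.36 to 0.14 and Pparg from -0.19 to 0.50. Adjusted for the Actb gap G0s2 was -0.090, Plin1 -0.17 and Ppara 0.31. Without both samples numbered 2, the brighter Abhd5 probe set was -0.0077, Plin1 -0.016 and Ppara 0.097, and the mean of both Abhd5 probe sets was -0.27. The cause was not tested. With the filter at the 60th percentile Plin4, Plin1 and Ppara were not tested. Same-numbered samples correlated at 0.144, 0.027 and 0.0774 in their deviations from group means, and differently numbered samples at -0.141 to 0.0674. The same-numbered values were not all above 0.1, and the main fit did not take the numbers as pairs. These correlations do not settle whether the numbers are pairs. With the number as a replicate block 4 probe sets passed, 0 of them members, and Plin5 stayed at 0.95 with an adjusted p of 0.578. In that limma fit 4 member probe sets had an unadjusted p under 0.05, beside 1527 of all 18625. They were the brighter Plin2 (0.00375), Plin5 (0.0121), the dimmer Abhd5 (0.0283) and Pnpla2 (0.0360). Their adjusted p was 0.578 to 0.598. Signal over background limits Plin4, Plin1 and Ppara, which were dim.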
